A study of Mus musculus with 16 samples.

Results

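The enzymes described here make serine and pass its carbon to folate. They are Phgdh, Psat1 and Psph, which build serine, Shmt1 and Shmt2, which split serine into glycine and a folate-bound carbon, and Mthfd1, Mthfd2, Mthfd1l and Aldh1l2, which interconvert the folate-bound carbon. Members were listed by gene symbol, with earlier results of these data known. The 9 symbols were found once each among the 20601 genes of the deposited expression table. Liver tumors and nontumor liver of 8 mice were profiled by RNA-seq in 16 libraries, 4 in each of 4 groups. Every mouse, in all groups, carried the same oncogenes, since 19 µg of a human N-Ras plasmid and 1 µg of a human c-Myc plasmid had been injected with 2 µg of a plasmid for the Sleeping Beauty transposase, which inserts the transgenes into the DNA of the liver cells that take them up after hydrodynamic delivery. From week 4 the animals ate either a normal diet (ND) or a ketogenic diet (KD) (89.5% fat, with 10.4% protein and 0.1% carbohydrate) for 4 weeks, and tissue was resected at week 8. The groups were ND nontumor (plasmid-injected mice on the normal diet, liver outside the tumors), ND tumor, KD nontumor and KD tumor. No uninjected mouse was included, so nontumor liver was itself exposed to the oncogene plasmids, and strain, age, sex and hour of collection were not given in the sources used here. The 8 mice gave both tissues, and the libraries were therefore not all independent.

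Serine is made from a glycolytic intermediate in 3 steps, catalyzed in turn by Phgdh, Psat1 and Psph. Shmt1 works in the cytosol and Shmt2 in the mitochondrion, and the carbon they release onto tetrahydrofolate serves the synthesis of purines, thymidylate and methionine. Mitochondrial Mthfd2 and Mthfd1l oxidize that carbon and release it as formate, cytosolic Mthfd1 picks the formate up again, and mitochondrial Aldh1l2 oxidizes it to carbon dioxide. Adult liver is known for strong cytosolic folate metabolism and for low Mthfd2, which is high in embryonic and many tumor tissues. The transcription factor ATF4, switched on by amino acid shortage and other stresses, drives several of these genes in mammalian cells, and MYC is known to raise several as well.

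Levels are given as rescaled TPM, that is, the deposited TPM (reads per transcript length, scaled to the library) divided by a median-of-ratios factor for each library. Libraries are listed in the order 1, 2, 3, 4 of each group. Depth over the genes whose reads could be recovered ranged from 3429146 reads in ND nontumor 4 to 13780518 in KD tumor 3. ND nontumor 4 stood apart, since its listed TPM summed to 7.38% of the TPM total of a whole library, against 49.96% to 88.45% in the others. The tumor to nontumor calls on ND that rest on it are given with and without it. A gene was called when its limma p, adjusted by the Benjamini-Hochberg method over 13432 tested genes, was below 0.05. A log2 fold change is a difference of log2(rescaled TPM + 1), which understates the change of genes at low levels.

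The tissue labels were compared with marker genes. Both liver tumor markers, Afp and Gpc3, were higher in tumor than in nontumor liver on both diets. The summed level of the 5 listed hepatocyte markers (Alb, Ttr, Apoa1, Apob and Fgb; Tf was not listed) was 40439 to 74984 in ND nontumor, 57191 to 108146 in ND tumor, 25323 to 75628 in KD nontumor and 110853 to 158663 in KD tumor. None of these 5 was at 0 in any library. Alb and Apoa1 made up most of the sum. Ttr went the other way on ND, at 2309 to 3701 in tumor and 4477 to 11085 in nontumor liver. It did not pass (-1.33, limma, adjusted p = 0.0609). No hepatocyte marker was called on ND, and on KD Alb (1.48) and Fgb (1.38) were called higher in tumor.

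The start regions of Phgdh and Psat1, the most strongly induced pair, and of Shmt2, which moved the other way, are shown first. Each line holds the 250 bases before the start of a RefSeq transcript (GRCm38.p6), 5′ to 3′ on the gene's own strand, and Psat1 has a pair of annotated starts. Capitals mark the single match to the antioxidant response element that NRF2 binds (TGACNNNGC, sought on both strands).
Phgdh, chr3:98339970-98340219, minus strand: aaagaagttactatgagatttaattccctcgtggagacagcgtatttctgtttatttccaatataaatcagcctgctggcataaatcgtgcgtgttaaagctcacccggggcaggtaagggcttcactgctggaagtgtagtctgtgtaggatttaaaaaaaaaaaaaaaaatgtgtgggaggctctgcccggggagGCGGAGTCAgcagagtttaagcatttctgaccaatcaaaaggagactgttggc
Psat1, chr19:15925060-15925309, minus strand: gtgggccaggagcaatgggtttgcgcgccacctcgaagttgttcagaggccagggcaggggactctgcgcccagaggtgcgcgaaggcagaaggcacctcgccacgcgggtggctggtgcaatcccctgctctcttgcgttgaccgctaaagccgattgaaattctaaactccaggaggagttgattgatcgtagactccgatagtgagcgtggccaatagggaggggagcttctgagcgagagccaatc
Psat1, chr19:15924623-15924872, minus strand: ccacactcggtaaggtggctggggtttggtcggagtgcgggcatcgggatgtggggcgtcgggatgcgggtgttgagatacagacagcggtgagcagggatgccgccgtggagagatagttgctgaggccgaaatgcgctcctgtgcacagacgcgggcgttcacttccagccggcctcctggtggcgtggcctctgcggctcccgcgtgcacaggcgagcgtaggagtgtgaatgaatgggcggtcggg
Shmt2, chr10:127522445-127522694, minus strand: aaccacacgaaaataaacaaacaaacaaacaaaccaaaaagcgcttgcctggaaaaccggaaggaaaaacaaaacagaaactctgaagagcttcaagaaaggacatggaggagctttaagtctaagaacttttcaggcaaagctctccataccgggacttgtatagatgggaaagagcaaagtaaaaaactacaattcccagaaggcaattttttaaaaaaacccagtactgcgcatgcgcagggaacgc
RefSeq start regions were matched for 8 of the 9 genes, giving 9 regions that each ran from 250 bases before to 50 after a start. The core of the C/EBP-ATF response element bound by ATF4 (TGATGNAAN) was found in 0 of the 9 regions and in 3.95% of all 32851 RefSeq regions of that length. The MYC E-box (CACGTG) was found in 0 of the 9 and in 7.15% of all regions. The antioxidant response element was found in 2 of the 9, upstream of Phgdh at -53 and just after the start of Psph at 4, and in 12.4% of all regions. These counts describe letters within short windows, and none of the motifs overlapped another.

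On ND, 4 members (Phgdh, Psat1, Mthfd2 and Mthfd1l) were higher in tumor and 1 (Mthfd1) was lower, where 28.7% of all tested genes were called in either direction, 14.5% as higher and 14.2% as lower. On KD, 5 members (the same 4 and Psph) were higher and 1 (Shmt2) was lower, where 32.5% of all tested genes were called, 16.3% as higher and 16.2% as lower. The median log2 fold change of the 8 tested members was 0.76 on ND and 1.44 on KD, against 0.00 and 0.01 over all tested genes. Tumor and nontumor libraries did not overlap for 3 of the 8 on ND and 7 of the 8 on KD, where this held for 27.5% and 33.1% of all tested genes. Aldh1l2 stayed below the filter on low values (TPM of at least 1 in at least 4 libraries). Phgdh, Psat1 and Mthfd1l passed it through the groups where they were high, so the counts and medians account for the members and lend no support of their own. In these bulk samples, fewer cells of a type and less RNA per cell cannot be told apart.

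**Figure D1:**
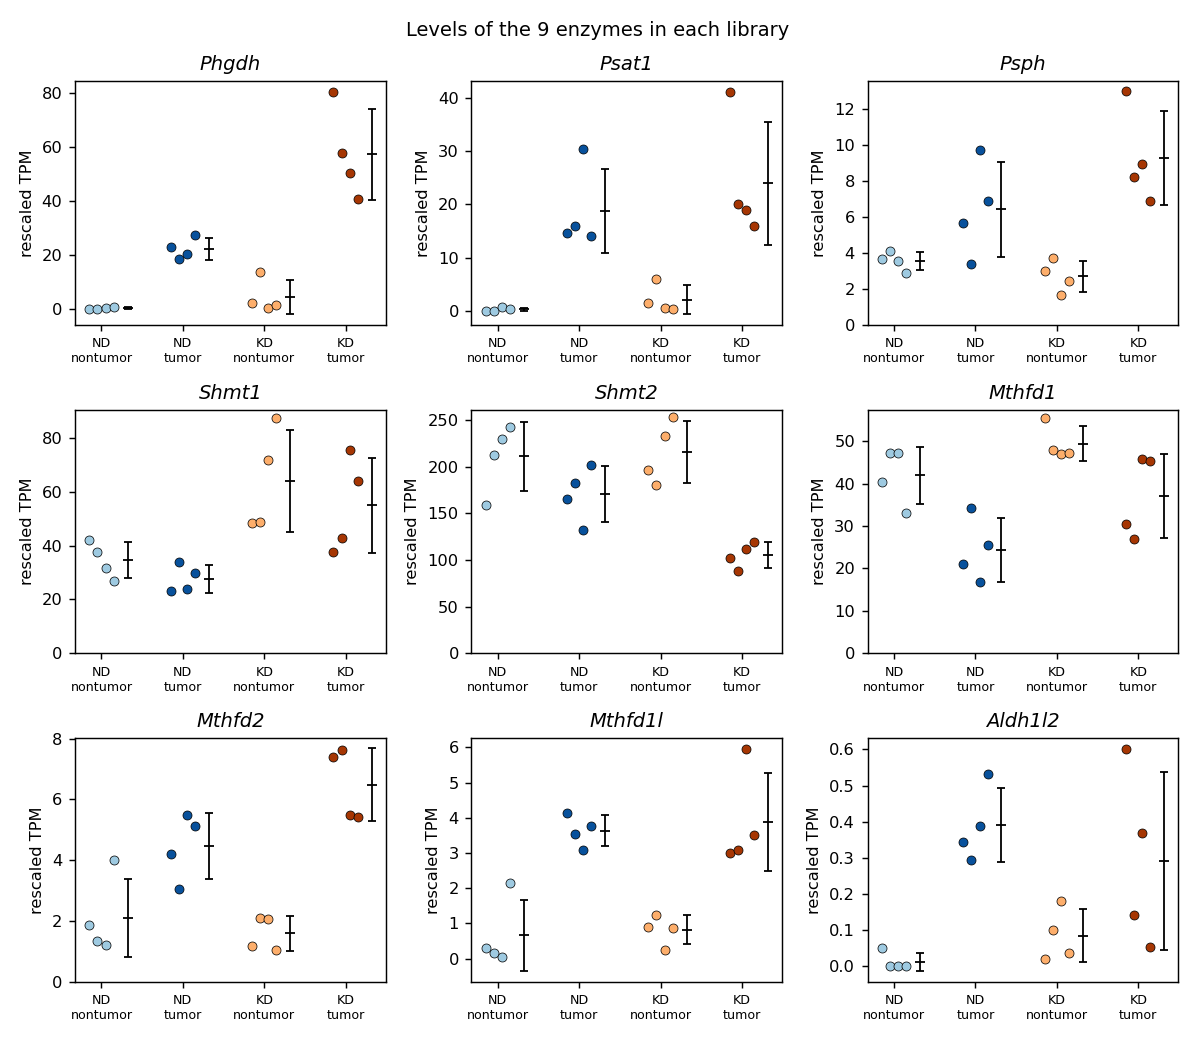
Rescaled TPM (linear vertical axes) of each of the 9 enzymes in all 16 libraries, with points in the order 1 to 4 within each group and the group mean ± SD beside them. Phgdh in the tumor libraries ran from 18.3 to 80.5 and in the nontumor libraries from 0 to 13.7, while Shmt2 was lowest in KD tumor, at 87.7 to 119.

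Phgdh encodes the dehydrogenase that commits carbon to serine (chromosome 3, 98313170 to 98339990, minus strand, GRCm38). It stood at 0, 0, 0.336 and 0.771 rescaled TPM in ND nontumor and at 22.8, 18.3, 20.3 and 27.4 in ND tumor. It stood at 2.06, 13.7, 0.454 and 1.34 in KD nontumor and at 80.5, 57.7, 50.6 and 40.7 in KD tumor. Every tumor library exceeded every nontumor library, and every KD tumor exceeded every ND tumor. The ND nontumor values rested on few reads, 0, 0, 4 and 4, against 263, 227, 277 and 493 in ND tumor. KD nontumor had 33, 227, 5 and 12 reads. In the pair of libraries with 0 reads, 3 reads would have given 0.226 and 0.269 rescaled TPM, limits that cover counting error only. The mean level was 80.3-fold higher in tumor than in nontumor on ND and 13.1-fold higher on KD. These folds turned on single nontumor libraries, as they were 199 without ND nontumor 4 and 44.7 without KD nontumor 2. The log2 fold change was 4.21 ± 0.49 (SE, n = 4 and 4, limma, adjusted p = 1.15e-05) on ND and 4.01 ± 0.49 (adjusted p = 2.48e-05) on KD. The ND value was 4.38 ± 0.53 without ND nontumor 4. Without KD nontumor 2, whose 13.7 was the highest nontumor level, the KD value was 4.70 ± 0.28.

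Psat1, the aminotransferase of the following step (chromosome 19, 15904678 to 15947337, minus strand), traced nearly the same pattern. It stood at 0.0441, 0.0524, 0.686 and 0.338 rescaled TPM in ND nontumor and at 14.7, 16, 30.5 and 14.0 in ND tumor. On KD the nontumor libraries held 1.57, 6.03, 0.531 and 0.392 and the tumors 41.1, 20.0, 18.9 and 16. Tumor and nontumor libraries did not overlap on either diet, whereas the tumors of the 2 diets did. On the log2 scale the change was 3.91 ± 0.43 on ND (limma, adjusted p = 6.73e-06) and 3.23 ± 0.43 on KD (adjusted p = 5.29e-05). Without ND nontumor 4 the ND value was 3.94 ± 0.47, and without KD nontumor 2 the KD value was 3.73 ± 0.33. Over the 16 libraries the log2 levels of Phgdh and Psat1 had a Pearson r of 0.97, which fell to 0.82 after group means were removed and to 0.47 over the 8 tumors. These coefficients are descriptions over libraries that share mice and group differences.

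Psph, the phosphatase that releases serine (chromosome 5, 129765558 to 129787449, minus strand), was already transcribed in nontumor liver and moved less. Its level was 3.68, 4.12, 3.56 and 2.88 rescaled TPM in ND nontumor and 5.68, 3.39, 9.73 and 6.91 in ND tumor. It was 2.97, 3.71, 1.67 and 2.44 in KD nontumor and 13, 8.25, 8.95 and 6.90 in KD tumor. ND tumor 2 lay among the ND nontumor libraries, whereas on KD every tumor exceeded every nontumor library. The log2 fold change was 1.47 ± 0.25 on KD (limma, adjusted p = 0.000457). On ND it was 0.64 ± 0.25 (adjusted p = 0.07), which did not pass, and without ND tumor 2 it was 0.87 ± 0.24 (adjusted p = 0.0136). On the deposited scale the KD value was 1.24 ± 0.48 and did not pass (adjusted p = 0.0965). It passed on that scale without ND nontumor 4 (1.24 ± 0.30, adjusted p = 0.0046). The exons of Psph share 452 bases (10.4% of their length) with Cct6a on the other strand. Whether counting used strand was not given, so reads from that stretch cannot be assigned to one gene.

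The serine hydroxymethyltransferases, which hand the carbon of serine to folate, did not join this rise. Shmt1, the cytosolic form (chromosome 11, 60788104 to 60811718, minus strand), held 42.1, 37.7, 31.8 and 26.9 rescaled TPM in ND nontumor and 23.1, 33.9, 23.9 and 29.7 in ND tumor. On KD it held 48.3, 48.8, 72.0 and 87.4 in nontumor liver and 37.7, 43.0, 75.5 and 63.9 in tumor. The diets were apart in both tissues, with every KD library above every ND library of the same tissue, while tumor and nontumor overlapped on each diet. The tumor to nontumor log2 fold change was -0.31 on ND (95% interval -0.83 to 0.21, limma, adjusted p = 0.371) and -0.23 on KD (-0.75 to 0.29, adjusted p = 0.505).

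Shmt2, the mitochondrial form (chromosome 10, 127517123 to 127522444, minus strand), was the most abundant of the 9 transcripts per length in every group. It held 159, 212, 230.0 and 243 rescaled TPM in ND nontumor and 165, 183, 132 and 202 in ND tumor. On KD it held 196, 179.9, 233 and 253 in nontumor liver and 102, 87.7, 112 and 119 in tumor. All 4 KD tumors lay below the other 12 libraries. On KD tumor was lower than nontumor by a log2 fold change of -1.02 ± 0.19 (limma, adjusted p = 0.000903). On ND the change was -0.30 (95% interval -0.71 to 0.11, adjusted p = 0.261). The KD call was lost on the deposited scale (-1.35 ± 0.67, adjusted p = 0.227) and stood on that scale without ND nontumor 4 (-1.35 ± 0.21, adjusted p = 0.000208).

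Mthfd1, the cytosolic trifunctional folate enzyme (chromosome 12, 76255298 to 76319803, plus strand), was lower in ND tumors. It held 40.3, 47.1, 47.3 and 33.0 rescaled TPM in ND nontumor and 21, 34.3, 16.7 and 25.5 in ND tumor. On KD it held 55.5, 47.8, 47.0 and 47.2 in nontumor liver and 30.4, 26.9, 45.7 and 45.2 in tumor. On ND only tumor 2 reached into the nontumor range, and on KD all tumors lay below all nontumor libraries. On the log2 scale the change was -0.79 ± 0.22 on ND (limma, adjusted p = 0.0124), and without ND nontumor 4 it was -0.90 ± 0.23. It was -0.44 on KD (95% interval -0.90 to 0.03, adjusted p = 0.137). The ND call was lost on the deposited scale (-0.19 ± 0.62, adjusted p = 0.887). On that scale without ND nontumor 4, limma called both changes, at -1.04 ± 0.24 on ND (adjusted p = 0.00458) and -0.77 ± 0.22 on KD (adjusted p = 0.014). The ND call was also lost with all listed genes brought to a common sum (-0.56 ± 0.21, adjusted p = 0.0586). The KD change passed with that common sum (-0.77 ± 0.21, adjusted p = 0.0114) and with limma's library weights (-0.50 ± 0.18, adjusted p = 0.043).

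Mthfd2, the mitochondrial dehydrogenase and cyclohydrolase (chromosome 6, 83305691 to 83325908, minus strand), rose in tumors from a low level. It held 1.88, 1.34, 1.20 and 3.99 rescaled TPM in ND nontumor and 4.21, 3.05, 5.49 and 5.14 in ND tumor. On KD it held 1.16, 2.11, 2.07 and 1.03 in nontumor liver and 7.41, 7.62, 5.50 and 5.41 in tumor. Tumor and nontumor were apart on KD, and on ND the library ND nontumor 4 lay above ND tumor 2. The log2 fold change was 0.88 ± 0.25 on ND (limma, adjusted p = 0.0158) and 1.54 ± 0.25 on KD (adjusted p = 0.000319). The ND call was lost without ND nontumor 2 (0.77 ± 0.27, adjusted p = 0.0545) or without ND nontumor 3 (0.74 ± 0.27, adjusted p = 0.056), and without ND nontumor 4 the value was 1.13 ± 0.22 (adjusted p = 0.00156).

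Mthfd1l, the mitochondrial enzyme that releases formate (chromosome 10, 3973118 to 4167081, plus strand), rose in tumors on both diets. It held 0.296, 0.151, 0.0470 and 2.16 rescaled TPM in ND nontumor and 4.13, 3.53, 3.08 and 3.76 in ND tumor. On KD it held 0.908, 1.25, 0.254 and 0.876 in nontumor liver and 2.99, 3.09, 5.95 and 3.50 in tumor. Every tumor library lay above every nontumor library. On the log2 scale the change was 1.63 ± 0.31 on ND (limma, adjusted p = 0.000835) and 1.41 ± 0.31 on KD (adjusted p = 0.00237). Without ND nontumor 4 the ND value was 1.99 ± 0.24 (adjusted p = 2.39e-05).

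Aldh1l2 (chromosome 10, 83487450 to 83534140, minus strand) was close to undetected, with 2, 0, 0 and 0 reads in ND nontumor and 12, 11, 16 and 29 in ND tumor. On KD it had 1, 5, 6 and 1 reads in nontumor liver and 33, 6, 21 and 2 in tumor. The ND groups were apart, but no library exceeded 0.601 rescaled TPM. With the filter on low values removed, its log2 fold change was 0.45 ± 0.11 on ND (limma, adjusted p = 0.00833) and 0.23 ± 0.11 on KD (adjusted p = 0.152). Its exons share 1056 bases (14.1% of their length) with D10Wsu102e on the other strand, so part of these few reads cannot be assigned. The cytosolic counterpart Aldh1l1 held 89.5 to 225 rescaled TPM over the 16 libraries.

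**Figure D2:**
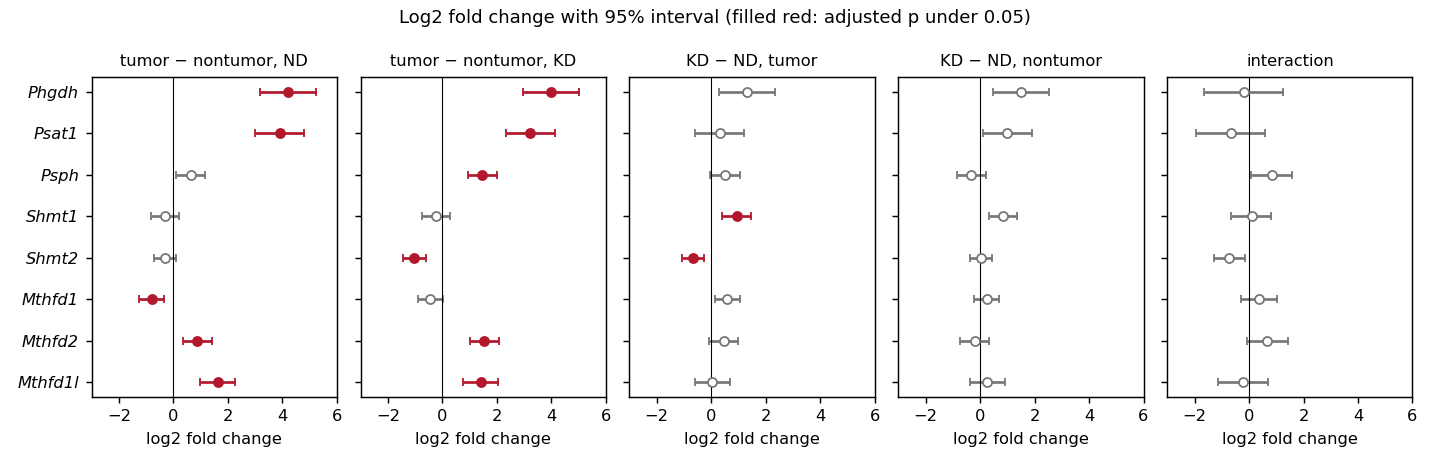
Log2 fold change (horizontal axes, log2(rescaled TPM + 1) scale) of the 8 tested enzymes in the 5 comparisons, with 95% intervals from the limma fit of all 16 libraries. Filled red points passed the adjusted p of 0.05, and they number 5, 6, 2, 0 and 0 in the panels from left to right.

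Between tumors of the 2 diets, the serine hydroxymethyltransferases differed in opposite directions. Shmt1 was higher and Shmt2 lower in KD than in ND tumors, and the other 6 tested members did not pass, where 15.8% of all tested genes were called, 7.15% as higher and 8.67% as lower. The log2 fold change was 0.93 ± 0.25 for Shmt1 (limma, adjusted p = 0.02), with 4 of 4 KD tumors above all ND tumors. It was -0.68 ± 0.19 for Shmt2 (adjusted p = 0.0267), with 4 of 4 KD tumors below all ND tumors. Both calls depended on single libraries. The Shmt1 call was lost without ND tumor 1 (0.85, adjusted p = 0.0604), ND tumor 3 (0.87, adjusted p = 0.0505), KD tumor 3 (0.76, adjusted p = 0.07) or KD tumor 4 (0.84, adjusted p = 0.0627). The Shmt2 call was lost without ND tumor 1 (-0.69, adjusted p = 0.0567), ND tumor 2 (-0.64, adjusted p = 0.0542), ND tumor 4 (-0.59, adjusted p = 0.0636), KD tumor 2 (-0.60, adjusted p = 0.074) or KD tumor 3 (-0.72, adjusted p = 0.0533). On the deposited scale neither passed, with 0.90 ± 0.63 for Shmt1 and -0.72 ± 0.67 for Shmt2, and both passed on that scale without ND nontumor 4, with adjusted p of 0.0496 and 0.0398. With the common sum of listed genes Shmt1 did not pass either (0.48 ± 0.30, adjusted p = 0.268).

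Phgdh was the third member whose tumors were apart by diet, at 18.3 to 27.4 rescaled TPM on ND and 40.7 to 80.5 on KD. Groups did not overlap for 22.9% of all tested genes in this comparison. Its log2 fold change of 1.30 ± 0.49 (95% interval 0.27 to 2.33) missed the threshold (limma, adjusted p = 0.078). The spread shared by all groups included KD nontumor 2, and without that library the value was 1.30 ± 0.26 and passed (adjusted p = 0.00654). It also passed without KD nontumor 3 (adjusted p = 0.0451), with only the tumor libraries in the fit (adjusted p = 0.00958) and with voom on recovered reads (adjusted p = 0.00934). Psat1 differed by 0.31 (95% interval -0.59 to 1.22), Psph by 0.51 (-0.03 to 1.04) and Mthfd2 by 0.46 (-0.07 to 1.00), none past the threshold. Mthfd1 differed by 0.59 (0.13 to 1.06, adjusted p = 0.0736), which passed without ND tumor 2 (0.77 ± 0.22, adjusted p = 0.0291). Mthfd1l differed by 0.04 (-0.60 to 0.69), an interval that does not show equal levels.

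The ratio of Shmt2 to Shmt1 within a library cancels the scaling and is given as a description, with no test, since the pair was picked after its values were seen. Shmt2 exceeded Shmt1 by 7.15, 5.40, 5.54 and 6.81 times in ND tumor and by 2.71, 2.04, 1.49 and 1.87 times in KD tumor. It exceeded it by 3.78, 5.61, 7.23 and 9.02 times in ND nontumor and by 4.05, 3.69, 3.24 and 2.90 times in KD nontumor. The KD tumors held the 4 lowest ratios. The mean log2 ratio on KD minus that on ND was -1.64 in tumors and -0.83 in nontumor liver, and tumor minus nontumor was -0.80 on KD and 0.02 on ND.

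**Figure D3:**
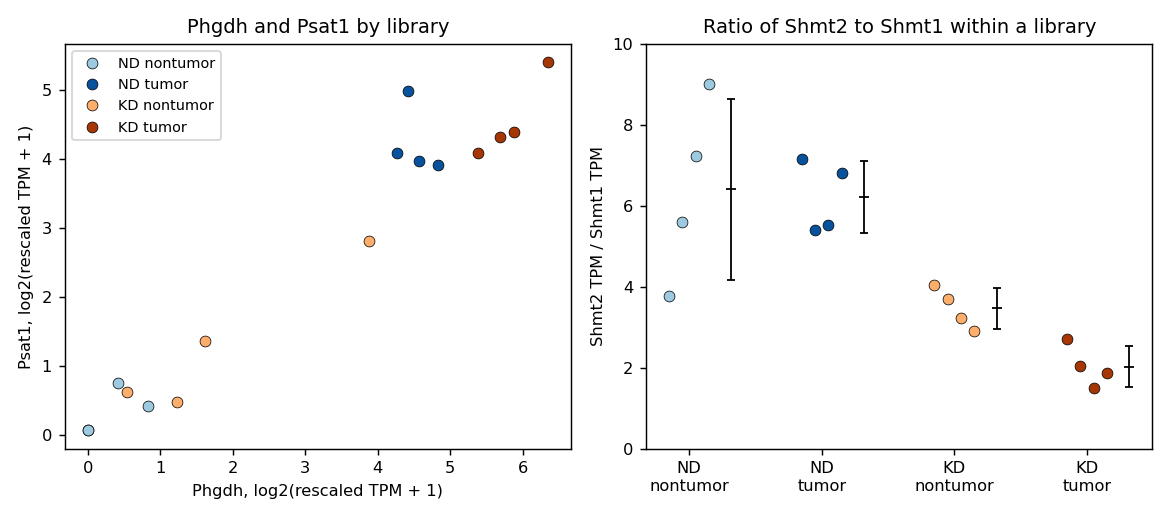
Left, Psat1 against Phgdh as log2(rescaled TPM + 1) in each of the 16 libraries; right, the ratio of Shmt2 to Shmt1 TPM (linear axis) in each library with the group mean ± SD. KD nontumor 2 lies between the other nontumor libraries and the tumors on the left, and the KD tumors hold the lowest ratios on the right, 1.49 to 2.71.

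In nontumor liver 0 of the 8 tested members passed for KD against ND with limma, where 7 genes (0.0521% of those tested) were called. At an unadjusted p below 0.05 there were 3 members, Phgdh, Psat1 and Shmt1, where 8.87% of all tested genes reached that level. The count was also 0 with voom on recovered reads, and 2 (Phgdh and Psat1, both higher on KD) with library weights. Those weights were largest for KD nontumor 2 (2.875), the highest library of its group in both genes. KD nontumor 3 and 4 had weights of 0.307 and 0.488. With the weights Phgdh differed by 2.39, so these calls leaned on KD nontumor 2. Shmt1 was the member whose diets were apart in nontumor liver, at 26.9 to 42.1 rescaled TPM on ND and 48.3 to 87.4 on KD, where 5.95% of tested genes had groups apart. Its log2 fold change was 0.84 (95% interval 0.32 to 1.36, adjusted p = 0.24). Phgdh differed by 1.50 (0.47 to 2.54, adjusted p = 0.318), and by 0.82 without KD nontumor 2. For Shmt2 the difference was 0.04 (-0.37 to 0.44), and Mthfd1 differed by 0.24 (-0.22 to 0.71).

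Whether the diet difference itself varied with tissue was tested by the interaction of diet and tissue. With limma 0 of 8 tested members passed, where 82 genes (0.610%) did, and 2 members (Psph and Shmt2) had an unadjusted p below 0.05, a level reached by 18.0% of all tested genes. The count was 0 with voom on recovered reads as well. The interaction of Shmt2 was -0.72 (95% interval -1.29 to -0.14, adjusted p = 0.185), and it passed only with all listed genes brought to a common sum (-1.30 ± 0.32, adjusted p = 0.0394). The interaction of Psph was 0.83 (0.08 to 1.59, adjusted p = 0.236). The calls for Psph, Shmt2, Mthfd1 and the diets in tumor therefore do not show that the tissues or the diets differed in these effects. All 5 comparisons draw on the same 4 groups, so their values share libraries.

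Among the KD mice, Shmt1 was lower in libraries 1 and 2 than in libraries 3 and 4 in both tissues, as the values above show. By the likeness of log2 levels over the 16 libraries, the 3 genes closest to Shmt1 were Hao1, a liver glycolate oxidase (r = 0.931), Aldh5a1, succinate semialdehyde dehydrogenase (r = 0.902), and Dbp, a transcription factor under control of the circadian clock (r = 0.896). Dbp held 23.7, 24.4, 71.9 and 102 rescaled TPM in KD nontumor and 30.3, 20.1, 70.2 and 57.9 in KD tumor. On ND it ranged from 4.52 to 19.1 over the tumors and from 5.28 to 17.5 over the nontumor libraries. Dbp was thus split among the KD libraries in the way Shmt1 was, and it was higher on KD than on ND in both tissues, with no overlap. The split was not particular to these genes. Chi-square per degree of freedom, higher for less alike libraries, was 13.4 (1 and 2) and 25.6 (3 and 4) in KD nontumor. Across the split it was 74.8 to 139.5. In KD tumor it was 33.8 and 34.6, against 54.2 to 71.6 across. KD nontumor 1 and 2 had more reads (10783011 and 10712983) than 3 and 4 (5953298 and 5525787), unlike the tumors. The part of the hour of collection, or of other differences between these libraries, in the Shmt1 result was not tested.

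Likeness was measured in the same way for the other members, with each r taken over 16 libraries that share mice, diets and tissue differences. Closest to Phgdh were Apoa4, an apolipoprotein (r = 0.980), Akr1c18, a steroid-reducing enzyme (r = 0.978), and Asns, asparagine synthetase (r = 0.977). Apoa4 averaged 74.5 rescaled TPM in ND nontumor, 1556 in ND tumor, 369 in KD nontumor and 4326 in KD tumor, which is the order of the Phgdh means (0.277, 22.2, 4.39 and 57.4). Psat1 was closest to Anxa4 (r = 0.975), Itih5 (r = 0.974) and Nid1 (r = 0.972), and Mthfd1l to Pnpla5 (r = 0.957), Sult4a1 (r = 0.951) and Myh9 (r = 0.948). Psph was closest to Snx5 (r = 0.927), Calu (r = 0.924) and Plac8 (r = 0.911), and Mthfd2 to Fat1 (r = 0.933), Cyp4f16 (r = 0.922) and A2ml1 (r = 0.920). Shmt2 ran with Klc1 (r = 0.961), Srrt (r = 0.940) and Col5a3 (r = 0.931). Mthfd1 followed Acadsb, which breaks down branched-chain amino acids (r = 0.967), Akr1c6 (r = 0.954) and Agmat (r = 0.946). Among the members themselves, Phgdh ran opposite to Shmt2 (r = -0.79), as did Psph (r = -0.84), and Shmt1 ran with Mthfd1 (r = 0.71). After group means were removed, r was -0.26 for Phgdh and Shmt2, -0.51 for Psph and Shmt2, and 0.58 for Shmt1 and Mthfd1. Over the 8 tumors, where the diet difference remains, these were -0.81, -0.67 and 0.91.

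The wider pathway was read from 52 further genes in 6 lists, of which 49 were tested. Tumors had 9 genes higher and 14 lower than nontumor liver on ND, and 9 higher and 12 lower on KD, and KD tumors had 9 higher and 4 lower than ND tumors. Over all tested genes 28.7%, 32.5% and 15.8% were called in these comparisons. On the deposited scale 4, 3 and 0 passed there, and 19, 21 and 10 on that scale without ND nontumor 4. On the rescaled levels the count for KD against ND tumors fell to 7 without ND tumor 1, 4 without KD tumor 3 and 5 without KD tumor 4. For the diets in nontumor liver and for the interaction 0 of 49 passed with limma or with voom, and 6 and 9 had an unadjusted limma p below 0.05, where 8.87% and 18.0% of all tested genes did.

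The list of serine and glycine use and breakdown holds genes that consume serine or glycine and genes that oxidize methylated glycines or make glycine. Of 10 tested, 7 were lower and 0 higher in ND tumors, where 14.2% of all tested genes were lower. On KD 6 were lower and 0 higher, where 16.2% of all tested genes were lower. Gnmt, which uses glycine to dispose of methyl groups, fell from 331 to 443 rescaled TPM in ND nontumor to 47.2 to 114 in ND tumor, a log2 fold change of -2.46 ± 0.49 (limma, adjusted p = 0.0013). On KD its change was -2.52 ± 0.49. Sds, serine dehydratase, changed by -1.78 on ND and -1.01 on KD, and Cbs, which joins serine to homocysteine, by -1.38 and -1.33. Dmgdh, which oxidizes dimethylglycine, changed by -1.64 on ND, and Pipox, which oxidizes sarcosine, by -1.26 on KD. KD tumors exceeded ND tumors in Sardh (1.00), which also oxidizes sarcosine, and in Agxt (0.91), which makes glycine from glyoxylate.

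Among 7 tested genes of ATF4 and its other targets, 5 were higher and 1 lower on ND, and 3 were higher and 1 lower on KD. Of all tested genes 14.5% were higher and 14.2% lower on ND, and 16.3% and 16.2% on KD. Asns held 0.48 to 1.58 rescaled TPM in ND nontumor, 11.3 to 16.7 in ND tumor, 0.495 to 5.98 in KD nontumor and 27.2 to 38.9 in KD tumor. It rose by 2.79 ± 0.33 on ND and 3.50 ± 0.33 on KD, and it was higher in KD than in ND tumors by 1.17 ± 0.33 (limma, adjusted p = 0.0283). Trib3, a pseudokinase, rose by 2.49 and 1.39, and Sesn2, a stress-induced leucine sensor, by 1.50 and 0.84. Ddit3, which encodes the stress factor CHOP, rose by 1.02 on ND and was lower in KD than in ND tumors by -1.26 ± 0.32. Cebpb, a liver transcription factor, was the gene of this list that was lower, by -0.91 on ND and -0.77 on KD. Atf4 itself, named after its values were seen, ranged from 215 to 235 rescaled TPM over the ND tumors and from 127 to 145 over the ND nontumor libraries (0.72 ± 0.15, adjusted p = 0.00166). On KD it ranged from 176 to 229 over the tumors and from 145 to 175 over the nontumor libraries, and it did not pass (0.38 ± 0.15, adjusted p = 0.0609).

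The carriers of serine, glycine and folate gave 3 higher and 0 lower of 10 tested on ND, and 2 higher and 1 lower on KD. Of all tested genes 14.5% were higher and 14.2% lower on ND, and 16.3% and 16.2% on KD. Slc1a4, a plasma membrane carrier of serine and other small neutral amino acids, rose by 2.75 ± 0.44 on ND and 2.24 ± 0.44 on KD. Sfxn1, which carries serine into mitochondria, rose by 0.74 and 0.60. Slc1a5, a carrier of glutamine and other neutral amino acids, rose by 0.73 on ND and was lower in KD than in ND tumors by -0.83 ± 0.24. Slc38a2 was lower in KD tumors than in KD nontumor liver (-0.78), and Slc46a1, the proton-coupled folate carrier, was higher in KD than in ND tumors (1.13 ± 0.26).

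Of the 12 other folate cycle enzymes, 1 was higher and 3 were lower in tumors on each diet. Among all tested genes 14.5% were higher and 14.2% lower on ND, and 16.3% and 16.2% on KD. Tyms, thymidylate synthase, rose by 0.70 on ND and 1.01 on KD. Fpgs, which adds glutamate to folates and so retains them in cells, fell by 0.86 on ND and 1.23 on KD. Ggh, which removes that glutamate, was lower on ND (-1.68) and Aldh1l1 on KD (-0.65). In KD against ND tumors 2 were lower, Fpgs (-0.75) and Mtfmt (-0.66), the mitochondrial enzyme that formylates the initiator transfer RNA. There 8.67% of all tested genes were lower.

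The glycine cleavage system, which breaks glycine into carbon dioxide, ammonia and a folate-bound carbon, was higher in KD than in ND tumors for 3 of its 4 genes. In that comparison 7.15% of all tested genes were higher. Gldc held 18.6 to 25.7 rescaled TPM in ND tumor and 35.2 to 62.7 in KD tumor (1.06 ± 0.27, limma, adjusted p = 0.0181), Gcsh differed by 1.02 and Dld by 0.73. In tumor against nontumor Amt was lower on both diets (-1.03 and -0.66), and Gldc (1.02) and Gcsh (0.79) were higher on KD. Purine synthesis, a main user of the folate-bound carbon, had 2 of 6 genes lower in ND tumors, Ppat (-0.96) and Paics (-0.81), and 1 higher in KD tumors, Atic (1.22). Of all tested genes 14.2% were lower on ND and 16.3% were higher on KD. Ppat (1.07) and Atic (1.03) were higher in KD than in ND tumors.

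**Figure D4:**
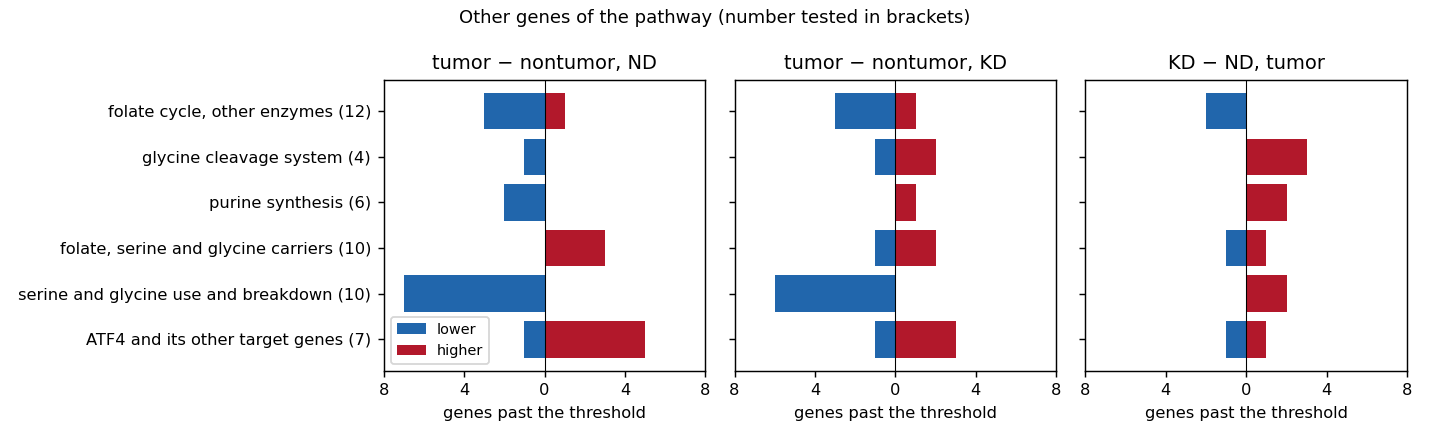
Number of genes past the adjusted p of 0.05 (horizontal axes) in each of 6 pathway lists, lower to the left in blue and higher to the right in red, for tumor against nontumor on each diet and KD against ND in tumor. The list of serine and glycine use and breakdown had 7 genes lower on ND and 6 lower on KD, with 0 higher in either.

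Several cell type markers moved with tumor against nontumor. Among all tested genes, 14.5% were higher and 14.2% lower on ND, and 16.3% and 16.2% on KD. Of 9 dividing cell markers, 5 were higher on ND and 7 on KD, and their sum was 20.6 to 26.4 rescaled TPM in ND nontumor, 49.6 to 78.2 in ND tumor, 13.8 to 42.6 in KD nontumor and 54.5 to 98.5 in KD tumor (Ccnb1 and Bub1 were at 0 in some libraries). KD nontumor 2, highest of its group in Phgdh, Psat1 and Asns, also had the highest dividing cell sum of its group, 42.6. Of the liver tumor markers, Gpc3 was the highest of the group in KD nontumor 2 (4.30, group mean 1.68). Afp was the lowest (2.45), but it varied little in that group (mean 2.96, SD 0.398). Spp1, higher in tumor on both diets, was also highest in that library (247, group mean 128). So was Apoa4 (1031, group mean 369), a gene picked for its likeness to Phgdh. The source of these values in KD nontumor 2 was not tested. Of 5 Kupffer cell markers, 5 were lower on ND and 4 on KD, with sums of 191 to 275, 7.64 to 32.1, 99.2 to 166 and 25.9 to 54.3 in the same group order (Vsig4, Timd4 and Marco were at 0 in some libraries). Of 6 monocyte and macrophage markers, 1 was higher on ND and 2 on KD, with sums of 182 to 245, 577 to 2077, 74.8 to 295 and 829 to 2663. Spp1 carried most of this sum in tumors, and the other 5 summed to 71.0 to 102, 67.9 to 149, 42.4 to 73.4 and 65.9 to 115. Of 5 endothelial markers, 3 were higher and 2 lower on ND and 0 passed on KD, with sums of 60.1 to 84.7, 59.0 to 101, 55.7 to 89.6 and 43.7 to 80.4. Of 6 stellate cell and fibroblast markers, 1 was higher and 2 lower on ND, and 2 higher and 1 lower on KD, with sums of 62.5 to 122, 48.8 to 147, 33.2 to 74.5 and 64.9 to 175. Of 4 tested T and NK cell markers, 2 were higher on ND and 1 on KD, with sums of 3.17 to 7.44, 8.44 to 28.7, 2.97 to 8.22 and 7.44 to 18.5. Of 3 tested cholangiocyte markers, 1 was higher and 1 lower on ND and 0 passed on KD. The 2 tested red blood cell markers were lower on ND, and the tested B cell and neutrophil markers did not pass in either tumor comparison. For KD against ND in tumor, where Shmt1 and Shmt2 passed, 2 of 5 endothelial markers were lower, Pecam1 (-1.75) and Cdh5 (-1.29), and 2 were higher, Clec4g (2.41) and Stab2 (1.16). There 7.15% of all tested genes were higher and 8.67% lower. The Kupffer cell markers Cd5l (1.72) and Clec4f (0.90), the neutrophil marker S100a8 (1.86) and the dividing cell marker Pcna (1.19) were higher in KD tumors, and the cholangiocyte marker Sox9 (-1.97) was lower. No tested hepatocyte, liver tumor, monocyte and macrophage, T and NK cell, B cell, stellate cell and fibroblast or red blood cell marker passed for the diets in tumor. The part of these cell types in the changes of the serine and folate enzymes was not tested.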

How the data were processed

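Per the labels, Trizol was used to extract RNA, and polyadenylated molecules were sequenced by an Illumina protocol. FastQC, HISAT2, SAMtools and featureCounts were used with build mm10 per the submitters' processing notes, which give no versions. The authors deposited 1 table of TPM values, and how TPM was made from counts, and the annotation, were not given in the sources used here. All 16 columns were mapped to samples by diet letters and number.

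TPM was divided by median-of-ratios factors (over 11798 genes above 0 in all libraries; 0.126 for ND nontumor 4) and tested as log2(value + 1) with limma 3.58.1 (R 4.3.3; variance trend, 1 fit of 16 libraries, no block) for the 13432 genes that reached a TPM of 1 in 4 or more libraries. Python 3.11.15 and scipy 1.17.1 did the rest. TPM times GENCODE M21 exon length gave whole reads (within 0.001) in all libraries for 98.06% of 19991 matched genes, all 9 members included. Those reads gave the depth and a voom alternative. No 2 libraries of a group were copies of each other (chi-square per degree of freedom 12.2 or more). Scripts were tested on simulated data.

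Members and lists were chosen with earlier results of these data known. Named besides the members were the 3 closest genes of each and up to 4 genes per list and comparison with the largest change among those that passed. In this list of named genes, 1 that met the rule is counted but not reported here. Over all tested genes, same-numbered libraries of a diet did not deviate together, so numbers were not treated as pairs. Single genes could differ from this, as Shmt1 and Dbp were split by number alike in both KD tissues. The labels do not tell biological from technical spread, so a p-value speaks of the spread of these libraries alone. Alternatives were other scalings, a pseudocount of 0.1, no filter, only the groups compared, library weights, a replicate block, voom and leaving out each library. The combination of the deposited scale with leaving out ND nontumor 4, and the ratios of members, were added after the data were seen. Of 8 exact permutation tests of 2 such ratios, 0 passed after adjustment and 4 had the smallest possible p of 0.0286, and none is used.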

Additional observations from a re-analysis of the deposited data

Results flagged for a closer look

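In groups of 4, a library was singled out when its gap to the nearest other library as a share of the group's range exceeded Dixon's 95% critical value. Of 36 gene and group pairs, 6 met this. The test's rate of 1 in 20 assumes independent, normally distributed values. These levels come from shared libraries and some are near 0, so no excess is read from the count. Phgdh was 13.7 rescaled TPM in KD nontumor 2, against 0.454 to 2.06 in the rest of its group. Psat1 was 30.5 in ND tumor 3, against 14.0 to 16. Psat1 was 41.1 in KD tumor 1, against 16 to 20.0. Mthfd1 was 55.5 in KD nontumor 1, against 47.0 to 47.8. Mthfd1l was 2.16 in ND nontumor 4, the library of lowest depth, against 0.0470 to 0.296. It had 20 reads there, against 7, 3 and 1 in the deeper libraries of the group. Afp was also highest of the group in ND nontumor 4 (1.85, against 0.501 to 0.991). Gpc3 was highest there by a small margin (1.96, against 0.310 to 1.88). The source of the Mthfd1l value was not tested. Aldh1l2 was 0.050 in ND nontumor 1, from 2 reads, against 0 in the others.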

How the results depend on the processing

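Calls in tumor against nontumor numbered 4 to 6 members on ND and 6 on KD when single libraries were left out, and 4 and 4 on the deposited scale. On that scale without ND nontumor 4 they numbered 5 and 7, and 2 for KD against ND in tumor. For KD against ND in tumor (2 members) the deposited scale gave 0, the common sum gave 1, and leaving out single libraries gave 0 to 3. In nontumor liver library weights gave 2 members in place of 0, and for the interaction the common sum gave 1 in place of 0. Changes that turned their direction had not passed the threshold. On the deposited scale these were Shmt1 (0.28) and Shmt2 (0.36) in tumor against nontumor on ND, Psph (0.20) and Mthfd2 (0.37) for the diets in nontumor liver, and the interactions of Shmt1 (-0.83) and Mthfd1 (-0.58). With the common sum they were Psat1 (-0.13) and Mthfd1l (-0.35) for the diets in tumor and the interactions of Shmt1 (-0.49) and Mthfd1 (-0.21). With library weights they were Shmt1 on KD (0.01) and, for the diets in nontumor liver, Shmt2 (-0.12) and Mthfd2 (0.02), and Mthfd2 was 0.15 there on the deposited scale without ND nontumor 4. Leaving out single libraries gave -0.14 to 0.13 for Mthfd1l for the diets in tumor, -0.09 to 0.12 for Shmt2 and -0.34 to 0.05 for Mthfd2 for the diets in nontumor liver, and -0.63 to 0.49 for Phgdh and -0.08 to 0.25 for Shmt1 in the interaction. The causes were not tested.

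The median of all tested genes was shifted on the deposited scale by 0.42, -0.26, 0.69 and -0.67 for tumor against nontumor on ND and KD, the diets in nontumor liver and the interaction, and with the common sum by 0.22, -0.27, 0.10 and -0.49, and by -0.35 for the diets in tumor. Over all genes the deposited scale called 1418 (1094 higher), 1111 (387 higher), 113, 65 (60 higher) and 14 in the 5 comparisons, and 4, 3 and 0 of the other pathway genes in the first 3. For the diets in nontumor liver (7 genes) the counts were 13 with the common sum, 4 with a pseudocount of 0.1, 2 with only the groups compared, 432 with library weights, and 5 to 12 without single libraries. For the interaction (82) they were 536 with the common sum, 32 without the filter, 391 with weights and 9 to 187 without single libraries. For the diets in tumor they were 1049 to 2510 without single libraries, and 4 to 15 of the other pathway genes.

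Same-numbered tumor and nontumor libraries of a diet had correlations of deviations between -0.11 and 0.16, above 0.1 in 2 of 8 pairs, and 2 of 8 nontumor libraries were closest to their own number. With the replicate block the members called numbered 5, 6, 2, 0 and 0, as without it, and the genes called in the interaction numbered 32. A fit of only the groups compared was not possible for the interaction, which needs all 4. The depth limits Phgdh, Psat1, Mthfd1l and Aldh1l2 in ND nontumor, where none of them had more than 20 reads in a library. In KD nontumor 3 and 4 they had 1 to 14 reads, whereas KD nontumor 2 had 227 for Phgdh and 171 for Psat1.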
